A study of Rattus norvegicus with 12 samples.

Results

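Genes of anion transport in the proximal tubule were followed through kidney development: Slc34a1, Slc17a1, Slc17a3, Slc13a1, Slc13a3, Slc4a4 and Pdzk1. They were taken as every probe set, a group of short probes that together read a transcript, whose single gene symbol in the platform annotation is one of these 7 names. That gave 10 of the 31042 probe sets on the array, 2 each for Slc34a1, Slc13a1 and Slc4a4 and 1 for each of the others, among 11920 genes with a kept probe set of a single symbol. RNA came from whole rat kidney of 3 ages: embryonic day 13, called E13 (n = 3), embryonic day 18, called E18 (n = 4), and week 4, called Wk4 (n = 3). A further group, the recombined tissue (n = 2), was made from UBs that formed in vitro and did not branch, joined with MM and kept in culture for 6 days, whereas embryonic kidneys were used straight after dissection. UB and MM are the usual short forms of the ureteric bud, the epithelium that branches into collecting ducts, and the metanephric mesenchyme, from which nephrons arise. The labels name no strain, genotype or sex, and nothing in them tells whether the replicates are different animals, litters or cultures. The p-values therefore cover the spread between these arrays alone, and that spread may be technical. The study's design asked how the recombined tissue compares with the kidney at an early, a late and a finished stage of development.

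The proximal tubule takes most of the filtered phosphate, sulfate, bicarbonate and citric acid cycle intermediates back into the blood. Phosphate and sulfate enter its cells with sodium through carriers in the brush border, the microvillar membrane facing the urine. Bicarbonate leaves through the basolateral membrane facing the blood. That membrane also takes up dicarboxylates from the blood, a route separate from the reabsorption of filtered ones. Dicarboxylates held inside the cell are then exchanged for organic anions such as drugs and urate. Scaffold proteins with PDZ domains hold the brush border carriers in place, and parathyroid hormone lowers phosphate uptake by removing the carrier from that membrane.

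The rat promoter windows of the 7 genes differed in base composition. All 7 were found in RefSeq on build GRCr8, and the 250 bases before each annotated gene start were read on the gene's own strand. The annotated start may not be the start used in kidney. A short word was searched on both strands, chosen after these windows had been read: CAAAGTCC, part of a sequence bound by the HNF4 family of nuclear receptors and read as GGACTTTG on the other strand. It was present in the windows of Slc34a1 and Pdzk1 and in 1.14% of 33465 rat promoter windows of the same length. Because the word was chosen after the windows had been read, that share cannot serve as a test. The windows of these 2 genes are printed with the word in capitals. That of Slc13a3, the member that was higher in the recombined tissue than at E13, is printed beside them and does not hold the word. The word was also absent from the windows of Slc17a1, Slc17a3, Slc13a1 and Slc4a4. Neither these genes nor Slc34a1 and Pdzk1, which hold the word, were called higher in recombined tissue than at E13.
Slc34a1: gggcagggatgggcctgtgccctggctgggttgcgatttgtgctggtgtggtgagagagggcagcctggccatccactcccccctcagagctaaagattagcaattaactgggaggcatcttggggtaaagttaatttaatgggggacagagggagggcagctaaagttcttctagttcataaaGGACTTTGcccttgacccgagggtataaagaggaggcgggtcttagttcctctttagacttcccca
Pdzk1: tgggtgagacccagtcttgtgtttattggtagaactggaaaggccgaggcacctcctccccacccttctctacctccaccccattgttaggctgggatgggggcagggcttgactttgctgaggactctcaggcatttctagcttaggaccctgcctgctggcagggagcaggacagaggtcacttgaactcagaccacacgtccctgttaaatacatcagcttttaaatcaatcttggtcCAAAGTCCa
Slc13a3: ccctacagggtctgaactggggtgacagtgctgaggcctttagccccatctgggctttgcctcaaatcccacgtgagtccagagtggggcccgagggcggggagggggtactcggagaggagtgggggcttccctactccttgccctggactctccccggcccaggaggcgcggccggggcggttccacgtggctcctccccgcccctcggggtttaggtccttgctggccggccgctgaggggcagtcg
The Slc34a1 window lies at chr17:9238984-9239233 on the minus strand, and its word covers positions -66 to -59 before the gene start. That of Pdzk1 lies at chr2:187064745-187064994 on the plus strand, with the word at -9 to -2. The window of Slc13a3 lies at chr3:174623894-174624143 on the minus strand. It had 69.2% G and C and 15 CpG pairs, against a median of 51.2% and 5 over all windows. Slc4a4, at chr14:19468283-19468532 on the minus strand, had 80.8% G and C and 42 CpG pairs, a G and C content above that of 99.1% of all windows. The other 5 genes had between 36.4% (Slc13a1) and 53.2% (Slc34a1) G and C. A matching word is a description of these letters and shows no binding.

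Levels below are the deposited array signals, on a linear scale. Differences are given as log2(signal + 271) of the first group minus the second, ± SE, where 271 is the 25th percentile of all signals, and it understates the change of dim probe sets. A probe set was called higher or lower when limma gave an adjusted p under 0.05 and the groups differed 3-fold or more, the fold that the design text uses. Signals of different probe sets are not on a common scale, so levels are compared only between arrays. All 10 probe sets passed the filter on low signals, and all 10 would have passed without the Wk4 arrays. On the E13 and recombined arrays alone 3 of the 10 would have passed, so the others enter that comparison through arrays of other groups. Without Wk4 these others pass through E18 arrays, the higher group in the comparisons of E18 with E13 and with recombined tissue. At E13, 8 of the 10 were at or under the 40th percentile of their array on every array, and 6 of the 10 were so in recombined tissue, so the E13 and recombined signals of most members lie in the dim range. Array medians ran from 799 to 1020. With 2 to 4 arrays a group, precision is limited by their number. Over all arrays, the residuals of the E13 and E18 arrays fell into sets that the labels do not name, with E13 replicate 1 and E18 replicates 1 to 3 in set 1 and the other E13 and E18 arrays in set 2.

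Slc34a1 encodes the sodium-phosphate cotransporter of the brush border that carries most phosphate reabsorption. Its signal was 385, 178 and 116 on the E13 arrays, 8147, 4205, 6614 and 6350 on the E18 arrays, 156154, 128491 and 128050 on the Wk4 arrays, and 271 and 811 in recombined tissue. The stages were separate, with every E18 array above every E13 array and every Wk4 array above every E18 array, while the lower recombined array lay within the E13 range. Means were 226 ± 141 (SD, n = 3) at E13, 6329 ± 1623 (SD, n = 4) at E18, 137565 ± 16100 (SD, n = 3) at Wk4 and 541 ± 382 (SD, n = 2) in recombined tissue. The second Slc34a1 probe set kept this order, at 253 ± 195 (SD, n = 3), 1649 ± 620 (SD, n = 4), 25447 ± 4611 (SD, n = 3) and 439 ± 87.6 (SD, n = 2).

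Pdzk1 encodes a scaffold with PDZ domains that binds the phosphate carrier and other brush border transporters. Its signal was 138, 89.7 and 95.4 at E13, 8826, 5752, 8340 and 8520 at E18, 51551, 50042 and 48467 at Wk4, and 27.3 and 83.9 in recombined tissue. The stages did not overlap, and both recombined arrays were below all 3 E13 arrays. Means were 108 ± 26.5 (SD, n = 3), 7860 ± 1419 (SD, n = 4), 50020 ± 1542 (SD, n = 3) and 55.6 ± 40.003 (SD, n = 2), in the same order of groups.

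**Figure D1:**
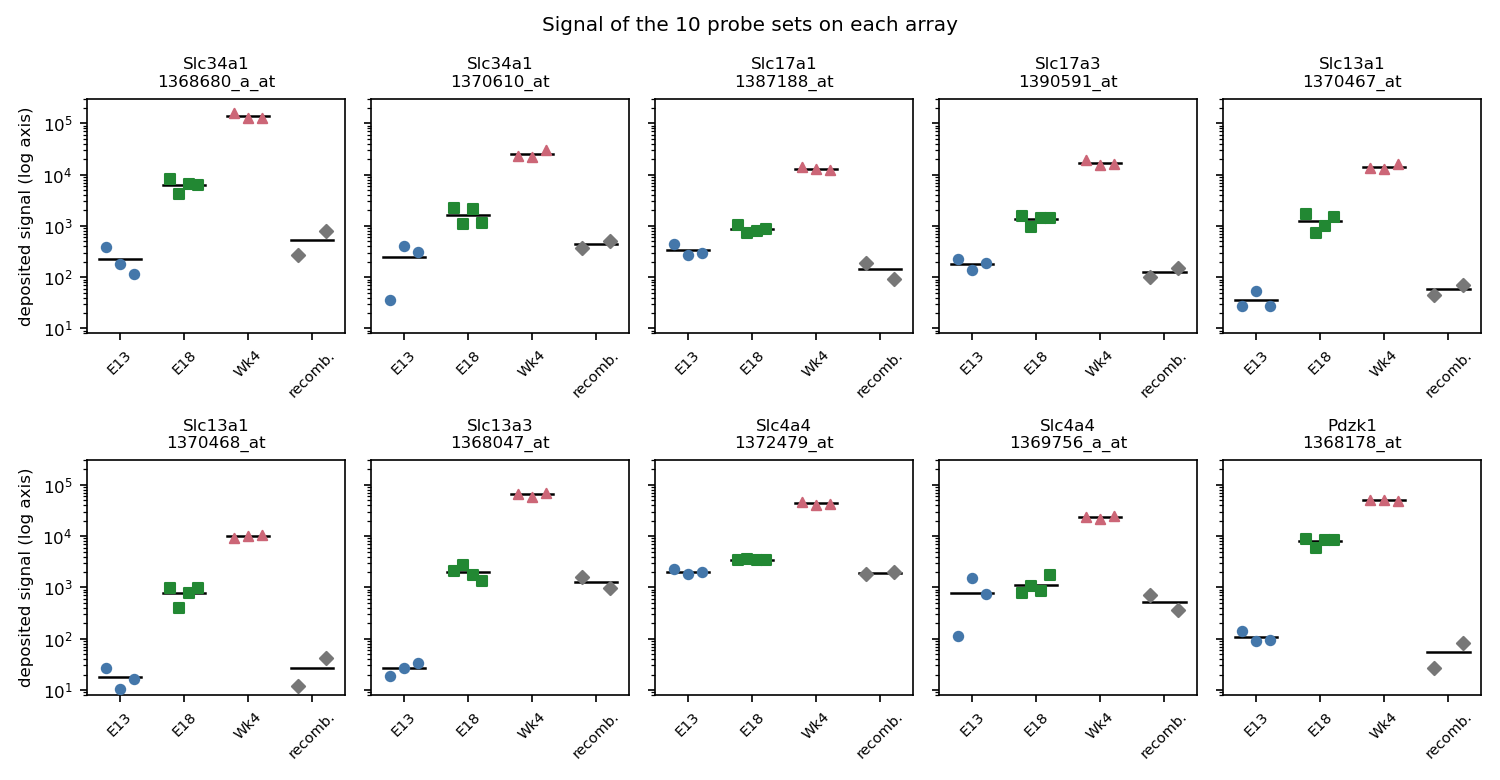
Deposited signal (log axis) of each of the 10 probe sets on each of the 12 arrays, by group, with points for arrays and a line at the group mean. In all 10 probe sets the Wk4 arrays lie above every other array, a separation that was not counted over all probe sets. Recombined tissue lies near E13 in each panel but that of Slc13a3, where both recombined arrays (1567 and 962) are far above the E13 arrays.

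Slc17a1 and Slc17a3 belong to a family first described as sodium-phosphate carriers, whose members carry urate and other organic anions across the apical membrane in humans. Slc17a1 read 444, 269 and 294 at E13, 1048, 712, 793 and 862 at E18, 14173, 12852 and 12050 at Wk4, and 191 and 93.5 in recombined tissue. Slc17a3 read 222, 137 and 190 at E13, 1546, 955, 1456 and 1406 at E18, 19469, 15690 and 16287 at Wk4, and 99.9 and 151 in recombined tissue. For both genes the stages were separate and recombined tissue had the lowest mean, though for Slc17a3 1 recombined array lay within the E13 range. Group means in the order E13, E18, Wk4, recombined were 336 ± 94.9, 854 ± 144, 13025 ± 1072 and 142 ± 69.0 for Slc17a1, and 183 ± 42.7, 1341 ± 264, 17149 ± 2032 and 125 ± 36.1 for Slc17a3 (SD, n = 3, 4, 3 and 2). The genes are relatives, and whether their probes also read each other's transcripts was not tested.

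Slc13a1 encodes the sodium-sulfate cotransporter of the brush border. Its signal was 27.7, 53.8 and 27.1 at E13, 1724, 737, 1011 and 1470 at E18, 13587, 12682 and 16247 at Wk4, and 45.9 and 70.4 in recombined tissue. E13 and recombined arrays were all very dim and overlapped, while the 3 kidney stages were separate. Means were 36.2 ± 15.3 (SD, n = 3), 1236 ± 444 (SD, n = 4), 14172 ± 1853 (SD, n = 3) and 58.2 ± 17.3 (SD, n = 2). The second probe set of the gene gave 17.8 ± 8.37 (SD, n = 3), 785 ± 278 (SD, n = 4), 9972 ± 759 (SD, n = 3) and 26.9 ± 21.1 (SD, n = 2), in the same order.

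Slc13a3 encodes the high-affinity sodium-dicarboxylate cotransporter of the basolateral membrane, which loads the cell with succinate and alpha-ketoglutarate. Its signal was 18.6, 26.7 and 33.9 at E13, 2067, 2760, 1758 and 1333 at E18, 67691, 57630 and 70929 at Wk4, and 1567 and 962 in recombined tissue. Both recombined arrays stood far above all E13 arrays, 1 of them within the E18 range and the other below it. Means were 26.4 ± 7.65 (SD, n = 3), 1979 ± 601 (SD, n = 4), 65417 ± 6935 (SD, n = 3) and 1264 ± 428 (SD, n = 2).

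Slc4a4 encodes the electrogenic sodium-bicarbonate cotransporter through which reabsorbed bicarbonate leaves the tubule cell. Unlike the other members it had a clear signal already at E13, at 2259, 1811 and 1980. It then read 3473, 3516, 3405 and 3358 at E18, 46915, 40741 and 42781 at Wk4, and 1836 and 2006 in recombined tissue. The E18 arrays lay within a narrow range above all E13 arrays, and the recombined arrays fell inside the E13 range. Means were 2016 ± 226 (SD, n = 3), 3438 ± 70.5 (SD, n = 4), 43479 ± 3146 (SD, n = 3) and 1921 ± 120 (SD, n = 2). The second Slc4a4 probe set was uneven in the embryo, at 113, 1493 and 738 on the E13 arrays and 784, 1083, 837 and 1709 on the E18 arrays. In both stages its higher arrays were those of set 2, and E13 and E18 overlapped. It read 23897, 21938 and 24580 at Wk4, and 707 and 355 in recombined tissue.

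From E13 to E18, a span in which nephrons begin to form, 5 of the 7 genes were called higher. By the same rule 1.93% of all 22599 probe sets tested were called higher and 0.407% lower. The members were chosen with earlier results of these data known. Such shares, here and in the comparisons below, therefore give a scale and do not test the members as a set. At an unadjusted p under 0.05 in limma, a looser rule than that of these shares, 7 genes were higher and 0 lower. Without a fold, at an adjusted p under 0.05 in limma, 7 genes were higher, and 4468 of all probe sets differed in either direction. The median difference of the members was 2.24, against -0.02 over all probe sets. In all 7 genes the E18 arrays lay above all E13 arrays. How many of all probe sets separate in this way was not counted. Pdzk1 rose by 4.41 ± 0.15 (limma adjusted p = 1.93e-10) and Slc34a1 by 3.73 ± 0.25 (limma adjusted p = 1.23e-07). Slc13a3 rose by 2.88 ± 0.20, Slc13a1 by 2.24 ± 0.21 and Slc17a3 by 1.82 ± 0.17, with limma adjusted p of 1.44e-07, 3.18e-06 and 2.46e-06. Slc17a1, at 0.89 ± 0.17, and Slc4a4, at 0.70 ± 0.11, were higher by less than 3-fold, with limma adjusted p of 0.00143 and 0.000297. The embryonic sets came from residuals of these data. Set 1 holds 1 E13 array and set 2 holds 1 E18 array, so only sizes are given. With the set as a covariate or either set alone, the rise was 4.25 to 4.60 for Pdzk1 and 3.28 to 3.99 for Slc34a1. It was 2.41 to 3.07 for Slc13a3, 2.20 to 2.48 for Slc13a1 and 1.67 to 1.95 for Slc17a3. Slc17a1 gave 0.64 to 1.04 and Slc4a4 0.56 to 0.75. With 4 times the pseudocount 2 genes were called higher, as Slc17a3, Slc13a1 and Slc13a3, all dim at E13, fell short of 3-fold. The second probe set of Slc34a1 was called too, at 1.89 ± 0.28 (limma adjusted p = 0.000219), and that of Slc13a1, at 1.83 ± 0.21 (limma adjusted p = 2.43e-05), while that of Slc4a4 was not (0.59 ± 0.38, limma adjusted p = 0.317).

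From E18 to Wk4 all 7 genes and all 10 probe sets were called higher, against 5.76% of all probe sets called higher and 5.43% called lower. The median difference was 3.56, against -0.12 over all probe sets. Slc13a3 rose most, by 4.90 ± 0.20 (limma adjusted p = 9.9e-11), followed by Slc34a1 (4.41 ± 0.25, adjusted p = 2.37e-09). Slc17a1, Slc4a4, Slc17a3 and Slc13a1 lay close together, at 3.57 ± 0.17, 3.56 ± 0.11, 3.44 ± 0.17 and 3.30 ± 0.21. Pdzk1 rose least, by 2.65 ± 0.15 (limma adjusted p = 2.36e-09). On the linear scale the mean E18 signal was 15.7% of the mean Wk4 signal for Pdzk1, and between 3.03% (Slc13a3) and 8.72% (Slc13a1) for the other 6. In whole-tissue RNA, fewer cells of a type and less RNA per cell cannot be told apart. The summed signal of 12 proximal tubule marker genes moved the same way as the members, from 6868 to 8425 on the E13 arrays, 40471 to 50163 at E18 and 556340 to 593728 at Wk4. Such a sum is weighted to bright probe sets, as that of Miox, with a mean of 159368 at Wk4. The part of these markers in the members' rise was not tested.

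Over the whole span from E13 to Wk4, all 7 genes were called higher, beside 9.39% of all probe sets called higher and 8.46% lower. The differences ran from 4.26 (Slc4a4) to 8.14 (Slc34a1), with 7.78 for Slc13a3, 7.05 for Pdzk1, 5.55 for Slc13a1, 5.26 for Slc17a3 and 4.46 for Slc17a1. By E18, Pdzk1 had covered 62.5% of its log2 rise, Slc34a1 45.8%, Slc13a1 40.5%, Slc13a3 37.0% and Slc17a3 34.5%. Slc17a1 had covered 20.01% and Slc4a4 16.5%. On this scale the scaffold gene had the largest early share of the 7 and the bicarbonate carrier the smallest.

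The difference between the later and the earlier step was tested in the same fit, as the change from E18 to Wk4 minus that from E13 to E18. For 4 of the 7 genes the later step was called larger and for 1 it was called smaller, against 4.37% and 6.16% of all probe sets. The later step was larger for Slc4a4 (2.86 ± 0.18, limma adjusted p = 8.43e-08), Slc17a1 (2.68 ± 0.28, limma adjusted p = 6.66e-06), Slc13a3 (2.02 ± 0.33, limma adjusted p = 0.00035) and Slc17a3 (1.63 ± 0.28, limma adjusted p = 0.000524). It was smaller for Pdzk1 (-1.76 ± 0.25, limma adjusted p = 0.000114). Slc34a1 (0.68 ± 0.42, limma adjusted p = 0.25) and Slc13a1 (1.06 ± 0.36, limma adjusted p = 0.0374) were not called, while the second Slc34a1 probe set was called larger (1.89 ± 0.47, limma adjusted p = 0.0074). This comparison depends on the pseudocount for genes near the floor at E13: with a pseudocount of 1 the sign turned for Slc34a1 (-0.46), Slc13a1 (-1.47) and Slc13a3 (-1.08), and Slc17a3 (0.82) was no longer called. With 4 times the pseudocount Slc34a1 (1.77) and Slc13a1 (1.70) were called larger. For Pdzk1 the sign was negative under all 27 alternatives, from -3.49 to -0.36, and for Slc4a4 and Slc17a1 it was positive under all of them, from 2.75 to 3.21 and from 2.42 to 2.94. The Pdzk1 call was lost with 4 times the pseudocount (-0.36) and in set 1 alone (-1.56). The Slc17a3 call was lost without E13 replicate 1 (1.57), without E18 replicate 2 (1.38), without Wk4 replicate 1 (1.53) or in set 2 alone (1.42).

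**Figure D2:**
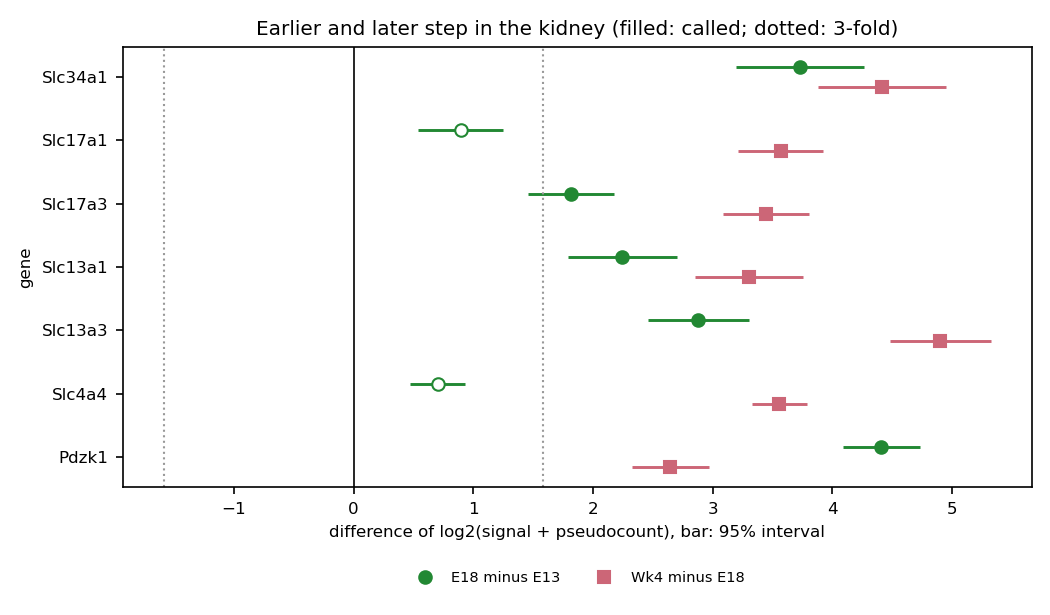
Difference on the log2(signal + pseudocount) scale for the highest-reading probe set of each gene, E18 minus E13 and Wk4 minus E18, with the 95% interval of the fit over all 12 arrays as a bar. Filled points were called and dotted lines mark 3-fold: Slc17a1 (0.89) and Slc4a4 (0.70) are open in the earlier step, and Pdzk1 is the gene whose earlier point (4.41) lies right of its later one (2.65).

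In recombined tissue Slc13a3 was the member called different from E13. Against E13, 1 of the 7 genes was called higher and 0 lower, beside 3.95% of all probe sets called higher and 0.912% lower. An unadjusted p under 0.05 in limma, a looser rule than that of these shares, gave 2 higher and 1 lower. Without a fold, at an adjusted p under 0.05 in limma, 1 was higher and 1 lower, and 7015 of all probe sets differed in either direction. The median difference of the members was -0.06 against 0.00 over all probe sets. Slc13a3 was higher by 2.34 ± 0.24 (limma adjusted p = 5.09e-06). Leaving out each array in turn kept that difference between 2.05 and 2.63, and with 4 times the pseudocount it was 1.07 and not called. Slc34a1 was at 0.66 ± 0.30 (limma adjusted p = 0.114), resting mainly on recombined replicate 2, since leaving out each array in turn gave 0.16 to 1.16. Slc17a1 was lower by less than 3-fold (-0.55 ± 0.20, limma adjusted p = 0.0483). Slc17a3 (-0.19 ± 0.20), Slc13a1 (0.10 ± 0.25), Slc4a4 (-0.06 ± 0.13) and Pdzk1 (-0.22 ± 0.18) had limma adjusted p from 0.4 to 0.809. For Slc4a4, the member with a clear E13 signal, the 95% interval of the difference ran from -0.33 to 0.22. With a pseudocount of 1 the Pdzk1 difference was -1.12, since both recombined arrays were dimmer than the E13 arrays.

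Against E18, 4 of the 7 genes were called lower and 0 higher, beside 1.67% of all probe sets called lower and 2.73% higher. At an unadjusted p under 0.05 in limma, a looser rule than that of these shares, 7 were lower and 0 higher. Without a fold, at an adjusted p under 0.05 in limma, 6 were lower and 0 higher, and 6372 of all probe sets differed in either direction. Pdzk1 differed most (-4.62 ± 0.17, limma adjusted p = 4.05e-10), at 0.707% of the mean E18 signal. Slc34a1 (-3.07 ± 0.28, limma adjusted p = 2.56e-06), Slc13a1 (-2.15 ± 0.24, limma adjusted p = 1.46e-05) and Slc17a3 (-2.01 ± 0.19, limma adjusted p = 3.04e-06) were called too, at 8.55%, 4.71% and 9.35% of the mean E18 signal. Slc17a1 (-1.45 ± 0.19, limma adjusted p = 5.87e-05) fell short of 3-fold on the scale with 271 added, although its mean signal was 16.7% of the E18 mean, and it was called without recombined replicate 1 (-1.62) or with a pseudocount of 1 (-2.65). Slc4a4 was lower by less than 3-fold (-0.76 ± 0.12, limma adjusted p = 0.000326). Slc13a3 was not told apart from E18 (-0.54 ± 0.22, limma adjusted p = 0.0874), with a 95% interval of the difference from -1.02 to -0.06, and leaving out each array in turn gave -0.83 to -0.25. Its recombined mean was 63.9% of its E18 mean.

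The second probe sets gave mixed readings here. That of Slc13a1 was called lower than E18 (-1.78 ± 0.24, limma adjusted p = 7.78e-05). That of Slc34a1, at 26.6% of its mean E18 signal, fell short of 3-fold on the scale with 271 added (-1.38 ± 0.32, limma adjusted p = 0.00473), so the call on Slc34a1 rests on 1 of its 2 probe sets. That of Slc4a4 was at -0.77 ± 0.43 (limma adjusted p = 0.213).

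Against Wk4 all 7 genes were called lower, with differences from -7.48 (Slc34a1) to -4.32 (Slc4a4), beside 7.32% of all probe sets called lower and 7.88% higher. The mean recombined signal was 4.42% of the Wk4 mean for Slc4a4, 1.93% for Slc13a3, 1.09% for Slc17a1, 0.731% for Slc17a3, 0.410% for Slc13a1, 0.393% for Slc34a1 and 0.111% for Pdzk1. Set on the span from E13 to Wk4, recombined tissue lay 30.1% of the way for Slc13a3 and 8.09% for Slc34a1, and between -12.4% (Slc17a1) and 1.80% (Slc13a1) for the other 5. The comparisons of recombined tissue with E13, E18 and Wk4 all use the same 2 recombined arrays. The order of the group means was E13, recombined, E18, Wk4 for Slc34a1, Slc13a1 and Slc13a3, and recombined, E13, E18, Wk4 for the other 4. In that order E13 and recombined were the neighbours not told apart in 5 of the 7 genes at an adjusted p of 0.05, and for Slc13a3 recombined and E18 were.

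**Figure D3:**
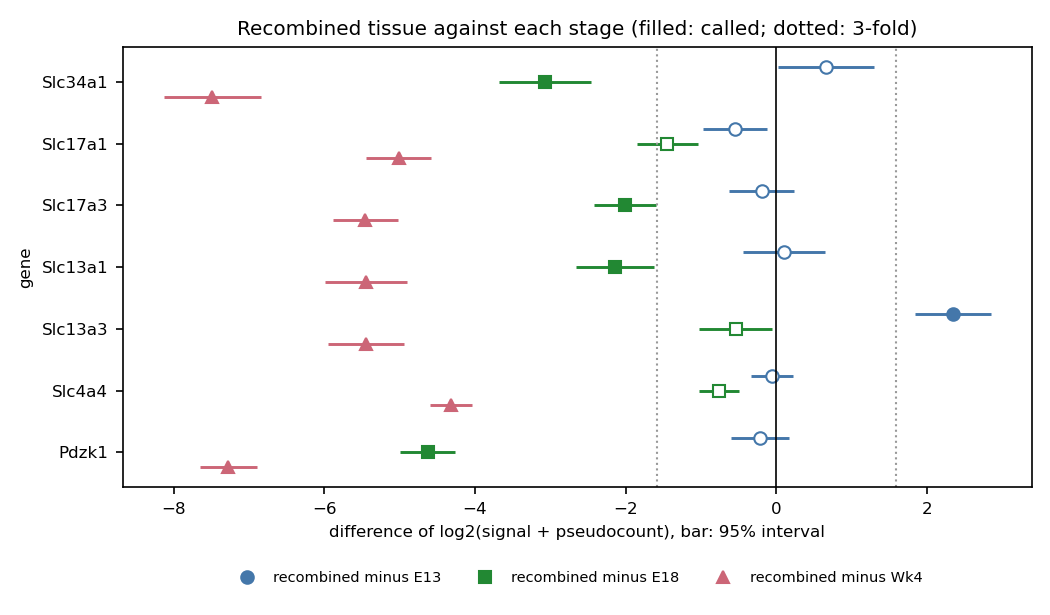
Difference of recombined tissue from each kidney stage on the log2(signal + pseudocount) scale, for the highest-reading probe set of each gene, with 95% intervals as bars, filled points for calls and dotted lines at 3-fold. Against E13 the point of Slc13a3 (2.34) is filled and the other 6 lie between -0.55 and 0.66, and against E18 the point of Slc13a3 (-0.54) lies nearest to 0.

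Markers of other cells also differed in recombined tissue. All 6 measured macrophage genes were called higher than at E13 and than at E18, and their summed signal ran from 91019 to 151087 in recombined tissue, 4251 to 5707 at E13, 12619 to 17309 at E18 and 34127 to 37725 at Wk4. Stromal genes summed to 293216 to 389201 in recombined tissue and to 127432 to 143252 at E13, with 1 of 5 called higher. That was the collagen gene Col1a1 (3.32 ± 0.33), with a mean of 13999 at E13 and 138645 in recombined tissue. Col3a1, another collagen gene, had means of 48437 and 131714. At an adjusted p under 0.05 in limma 4 stromal genes were higher and 1 lower. The lower one was Meis1 (-0.52 ± 0.18), with means of 50127 at E13 and 34664 in recombined tissue. All 4 erythroid genes were called lower than at E13, as Hbb (-3.22 ± 0.13) and Hbz (-8.50 ± 0.28), both globins, and lower than at E18; they summed to 565 to 952 in recombined tissue and to 105245 to 142503 at E13. Of 5 endothelial genes, 3 were called lower than at E13, among them Plvap (-3.34 ± 0.33) and Tek (-2.72 ± 0.17), and all 5 lower than at E18, with sums of 3553 to 10916 in recombined tissue and 24498 to 31359 at E13. Of 6 collecting duct genes, Hsd11b2, which inactivates glucocorticoids, was called higher than at E13 (2.50 ± 0.17) and at E18 (2.69 ± 0.16), and 3 were called lower than at E18. Of 3 measured nephron progenitor genes, 2 were called lower than at E13, Eya1 (-1.67 ± 0.23) and Meox1 (-1.83 ± 0.22), and 0 higher. Against E18, 3 of 5 genes of the thick ascending limb and distal tubule were called lower and 0 higher. For podocyte genes, 2 of 4 were called lower than at E18 and 0 higher. Of 12 proximal tubule markers, 2 were called higher than at E13: Anpep, an aminopeptidase of the brush border (2.17 ± 0.15), and Slc7a8, a neutral amino acid carrier (1.62 ± 0.27). At an adjusted p under 0.05 in limma 5 of the 12 were higher and 0 lower. Those short of 3-fold were Acy3 (0.88 ± 0.20), Ggt1 (0.60 ± 0.22) and Slc7a7 (0.53 ± 0.15). By that looser rule 1 was higher than at E18, Slc7a7 (0.81 ± 0.14), and 6 were lower. Lrp2, Cubn, Slc5a2, Ggt1 and Miox, which encode endocytic receptors, the main glucose carrier, an enzyme of glutathione breakdown and an enzyme of inositol breakdown, were called lower than at E18. The summed proximal tubule signal was 15948 to 17335 in recombined tissue, above the E13 arrays and below the E18 arrays. It is weighted to bright probe sets such as Anpep, with means of 1124 at E13 and 5994 in recombined tissue. In recombined tissue 7 of the 12 markers were at or under the 40th percentile on both arrays. Whether any of these cells carry the Slc13a3 signal was not tested.

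Other genes of these pathways were read from lists, described by counts and medians. Among 9 other phosphate and anion carriers, 1 was called higher at E18 than at E13, Slc34a2, a phosphate carrier relative better known from lung and gut, at 1.64 ± 0.20. That call was lost without E18 replicate 2 (1.53) or replicate 3 (1.55), with median centring (1.55), 4 times the pseudocount (0.67) or the embryonic set as a covariate (1.56). In set 2 alone the difference was 1.33. From E18 to Wk4, 3 were called higher, led by Slc34a3, a renal phosphate carrier (4.50 ± 0.20), and Slc17a2 (2.98 ± 0.20), with a median of 1.36 over the 9. In recombined tissue 1 was higher than at E13, Slc17a5, a lysosomal sialic acid carrier (1.68 ± 0.20). That call was lost with quantile normalization (1.58), median centring (1.49), 4 times the pseudocount (1.19), the embryonic set as a covariate (1.4002) or set 1 alone (1.45). Of these carriers 0 were called against E18. At an unadjusted p under 0.05 in limma 1 was higher and 4 lower, with the same counts at an adjusted p under 0.05, all short of 3-fold. Slc34a2 (-1.45 ± 0.23) and Slc17a4 (-1.29 ± 0.21) had the largest differences.

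Of 6 measured genes of sulfate transport and activation, 0 were called at E18 against E13. There 4 were higher at an unadjusted p under 0.05 in limma and 2 at an adjusted p under 0.05, short of 3-fold. At Wk4, 2 were called higher than at E18. These were Slc26a1, a sulfate exchanger of the basolateral membrane (3.14 ± 0.17), and Papss2, which makes the activated sulfate donor (2.31 ± 0.23). Papss2 was also higher in recombined tissue than at E13 (1.70 ± 0.28), a call lost without E13 replicate 3 (1.53) or recombined replicate 1 (1.14), and with median centring (1.51), 4 times the pseudocount (1.05), the mean of its probe sets (1.41), the embryonic set as a covariate (1.52) or set 1 alone (1.37). Of 8 dicarboxylate, citrate and coupled organic anion carriers, 0 were called at E18 against E13. There 4 were higher at an unadjusted p under 0.05 in limma and 3 at an adjusted p under 0.05, short of 3-fold. At Wk4, 5 were called higher than at E18, with a median of 2.87. Slc22a8 (5.41 ± 0.18) and Slc22a6 (5.06 ± 0.22), the basolateral organic anion carriers that exchange against dicarboxylates, rose most. Slc22a6 already stood at 1.55 ± 0.22 from E13 to E18, and it was called there without E13 replicate 3 (1.75), E18 replicate 2 (1.68) or E18 replicate 3 (1.59). In recombined tissue 0 of these 8 were called against E13 and 0 against E18. At an unadjusted p under 0.05 in limma 1 and 4 were lower, and at an adjusted p under 0.05, 0 and 3. Slc22a6 stood at 0.24 ± 0.26 and Slc22a8 at -0.23 ± 0.21 against E13, the comparison in which Slc13a3 stood at 2.34 ± 0.24.

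Among 10 measured genes of proximal bicarbonate handling, 2 were called higher at E18: Atp1b1, the beta subunit of the sodium pump (4.06 ± 0.14), and Car4, a membrane-bound carbonic anhydrase (2.21 ± 0.18). At Wk4, 6 were called higher than at E18, among them Aqp1, the water channel (3.99 ± 0.22), and Slc9a3, the apical sodium-proton exchanger (3.64 ± 0.22). Recombined tissue had Atp1b1 called higher than E13 (2.77 ± 0.17), and Car4 (-2.13 ± 0.21) and Car2 (-1.71 ± 0.14) called lower than E18. Of the 10 genes of the brush border scaffold list, 6 were called higher at E18, with a median of 1.67, and 1 with 4 times the pseudocount. It was led by Ezr, the membrane-cytoskeleton linker ezrin (2.91 ± 0.12), and Pdzk1ip1, a small membrane protein that binds the Pdzk1 scaffold (2.25 ± 0.15). From E18 to Wk4, 7 of the 10 were called higher, with Cdhr5, a protocadherin of microvilli, at 3.64 ± 0.16 and Pdzk1ip1 at 3.58 ± 0.15. In recombined tissue Ezr was called higher than at E13 (2.20 ± 0.14), whereas 3 genes were called lower than at E18, with Pdzk1ip1 at -2.94 ± 0.17 and Ush1c, a scaffold of microvillar links, at -2.38 ± 0.18. That count was 0 with 4 times the pseudocount, and 5 with a pseudocount of 1 or with median centring. With 4 times the pseudocount Car4 and Car2 were not called lower than E18 either, and Car4 was not called higher at E18 than at E13.

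Of 8 measured genes for phosphate hormones and their receptors, 0 were called at E18 against E13. There 3 were higher at an unadjusted p under 0.05 in limma and 2 at an adjusted p under 0.05, short of 3-fold. At Wk4, 3 were called higher than at E18, among them Kl, the co-receptor of the phosphate-lowering hormone (2.53 ± 0.22), and Vdr, the vitamin D receptor (1.82 ± 0.23). With 4 times the pseudocount 0 of the 8 were called at Wk4 (Kl 1.38, Vdr 1.07), and in set 2 alone Vdr was not (1.41). Pth1r, the parathyroid hormone receptor, was called lower in recombined tissue than at E18 (-1.81 ± 0.18), a call lost when the mean of its probe sets was taken (-0.90), with 4 times the pseudocount (-1.43) or in set 2 alone (-1.57). Of 5 measured transcription factors, Hnf4a, a nuclear receptor of the proximal tubule, was called higher at E18 (4.04 ± 0.15), higher again at Wk4 (3.68 ± 0.15) and lower in recombined tissue than at E18 (-4.04 ± 0.17). Its mean signal was 35.6 ± 14.0 (SD, n = 3) at E13, 4820 ± 870 (SD, n = 4) at E18, 64118 ± 4067 (SD, n = 3) at Wk4 and 33.9 ± 4.66 (SD, n = 2) in recombined tissue. Nr1h4, the bile acid receptor, was called higher at Wk4 (4.04 ± 0.25), and Cebpb was called higher in recombined tissue than in the E13 kidney (3.39 ± 0.29) and the E18 kidney (2.02 ± 0.28).

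**Figure D4:**
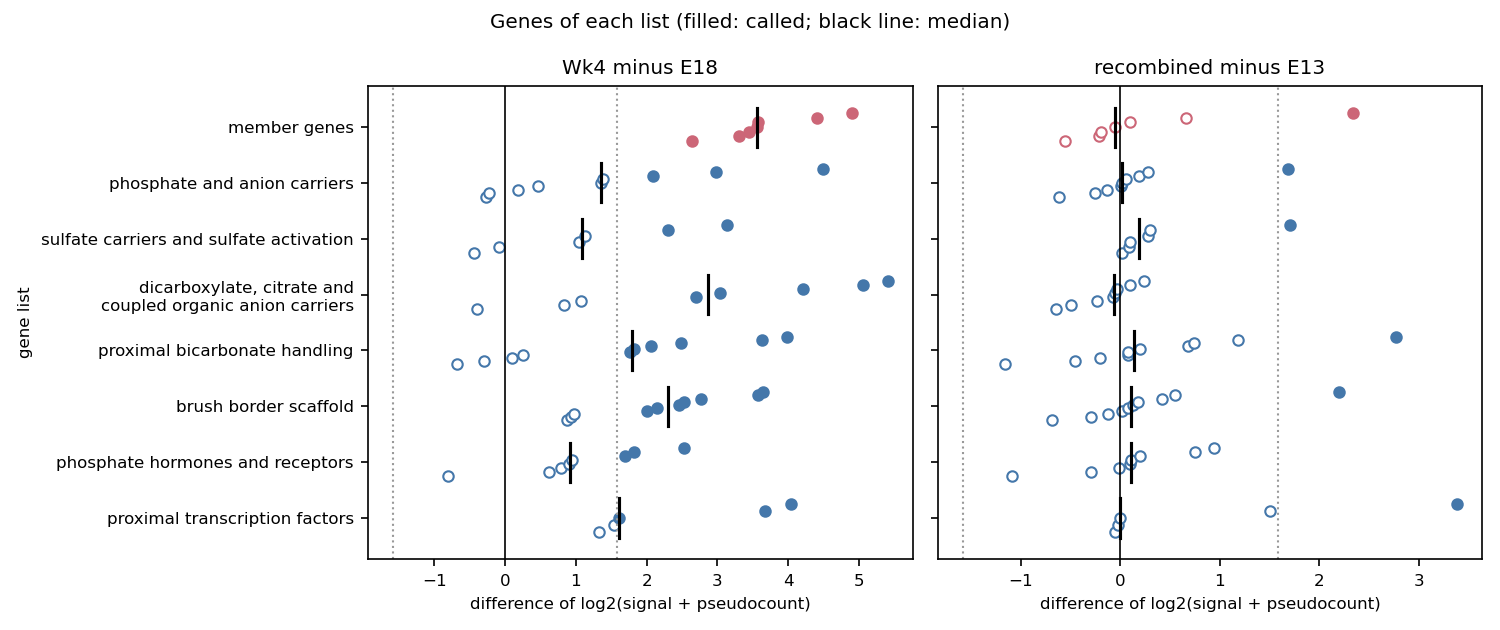
Difference on the log2(signal + pseudocount) scale of each gene of the 7 pathway lists, with the members on top, for Wk4 minus E18 on the left and recombined minus E13 on the right; filled points were called, the black bar is the list median and dotted lines mark 3-fold. On the left all 7 members are filled with a median of 3.56, and on the right Slc13a3 alone of the members is filled, at 2.34.

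The genes whose profiles over the 12 arrays were nearest to each member were found as the smallest root-mean-square difference of centred log2 values among 11919 other genes, which describes likeness and holds no test. Nearest to Slc34a1 were Cyp2c23, an arachidonic acid epoxygenase (0.246), Hao2, a peroxisomal hydroxy acid oxidase (0.331), and Dao, D-amino acid oxidase (0.441), followed by Hnf4a (0.465) and Slc7a13 (0.472). Pdzk1 was nearest to Hnf4a (0.406), Aqp2, the water channel of the collecting duct (0.461), and Defb1, a defensin (0.519), then to Ass1 (0.525) and Slc7a13 (0.534). Thus Hnf4a and Slc7a13 stood among the 5 nearest genes of both the phosphate carrier and its scaffold.

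Slc17a1 lay nearest to Acy1, an aminoacylase (0.187), Dcxr (0.242), the exchanger gene Slc9a3 (0.261), the member Slc4a4 (0.286) and Mgst3 (0.289). Slc17a3 lay nearest to Slc5a2, the glucose carrier of the early proximal tubule (0.207), the member Slc13a1 (0.251), Atp6v0a4 (0.258), Tst (0.279) and Cldn10 (0.280). Slc13a1 shared 3 of these neighbours, with Tst at 0.243, Atp6v0a4 at 0.247 and Cldn10 at 0.272, beside Slc17a3 at 0.251 and Gjb2 at 0.279. The carriers Slc17a3 and Slc13a1 were the closest of the 21 pairs of members, and Slc4a4 and Pdzk1 the farthest apart (1.71). Slc4a4 lay nearest to Decr2, a peroxisomal enzyme of fatty acid breakdown (0.174), Mfsd4b2l1 (0.188), Aqp11 (0.207), Ppp1r1a (0.236) and Thnsl2 (0.2402). The nearest genes to Slc13a3 were farther away than those of any other member: Acy3, an aminoacylase (0.653), Slc47a1, an organic cation exporter (0.680), Adh1c (0.695), Gpx3 (0.702) and Gsta1 (0.704).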

How the data were processed

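Total RNA, extracted with an Ambion micro kit, was labelled as biotinylated cRNA and hybridised to Affymetrix rat arrays, per the labels' protocols. Per the submitters' processing notes GCOS was used, and the intensity deposited by the authors for each probe set is linear. For GCOS, version and settings were not given in the sources used here. Control probe sets, 57 in all, were left out. Values were taken as log2(signal + 271). A probe set was kept if 2 or more arrays had it above their 40th percentile (22599 kept, 8443 removed). A linear model for the 4 groups was fitted to the 12 arrays with limma 3.58.1 in R 4.3.3 (lmFit, eBayes with trend, 8 residual degrees of freedom). Two-sided p-values were adjusted by Benjamini-Hochberg over every kept probe set. A gene with several kept probe sets was represented by the one with the highest mean log2 value. From each list, counts and the 2 genes with the largest absolute difference per comparison were named. Members were named in full, each with the 5 genes of nearest profile. The members and lists were chosen with earlier results of these data known. Some list genes were not analysed here, and Slc26a2, Fgf23, Pth and Phex were below the filter. The steps were tested on simulated data with changes planted in probe sets above the median level, so changes in dim probe sets were not covered.

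Replicate numbers did not pair the arrays: residuals of arrays with the same number correlated between -0.17 and 0.31 over 15 pairs. Residuals of E13 and E18 arrays correlated between 0.25 and 0.41 within the embryonic sets (5 pairs) and between -0.60 and -0.15 across them (7 pairs). No 2 arrays held identical values. Alternatives were a pseudocount of 1 or 4 times as large, quantile normalization, median centring, other filters and calls, each array left out, a replicate block, the mean of probe sets and, chosen after seeing the data, the embryonic sets.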

Additional observations from a re-analysis of the deposited data

Results flagged for a closer look

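In 1 of the 10 E18 groups of signals that were large enough to look for a single array far from the others, an array stood apart: Pdzk1 on E18 replicate 2 read 5752, while the other 3 E18 arrays lay between 8340 and 8826, and the gap to the nearest array was 0.842 of the whole range of the group. Chance gives about 1 such flag in 20 independent groups, but these 10 share the same E18 arrays. E18 replicate 2 was also the lowest E18 array for both probe sets of Slc34a1 and of Slc13a1, for Slc17a1 and for Slc17a3. It was the highest for Slc13a3 and for the first Slc4a4 probe set. Without E18 replicate 2 the difference of Pdzk1 between E18 and E13 was 4.54.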

How the results depend on the processing

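Of 1323 member differences recomputed under 27 alternatives, 1292 kept their direction and their side of the threshold, 13 lost a call, 12 gained one and 6 turned in sign. The pseudocount mattered most often for calls. With 4 times the pseudocount, members called higher at E18 than at E13 went from 5 to 2, higher in recombined tissue than at E13 from 1 to 0, lower than at E18 from 4 to 2, and genes with a smaller later step from 1 to 0. With a pseudocount of 1, genes with a larger later step went from 4 to 2, and the sign turned for Slc34a1 (-0.46), Slc13a1 (-1.47) and Slc13a3 (-1.08). Embryonic set 1 alone gave 0 genes with a smaller later step. A call without a fold gave 1 member lower in recombined tissue than at E13. Differences near 0 between recombined tissue and E13 turned for Slc13a1 with median centring (-0.094) and for Slc4a4 without E13 replicate 1 or in set 2 alone (0.017 each), where leaving out each array in turn gave -0.12 to 0.017. Among list genes, Slc13a4 against E13 turned without recombined replicate 2 (-0.18, and up to 0.77 over the arrays left out) and Papss2 against E18 without recombined replicate 1 (-0.20, and up to 0.93). The cause of these changes was not tested. The replicate block changed no member count: E18 against E13 gave 5 higher with the replicate block as without it, and Wk4 against E18 gave 7.

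Over all probe sets, calls in both directions moved by more than 1.5 times as follows. For E18 against E13, 529 became 1036 with a pseudocount of 1, 188 with 4 times the pseudocount, 1503 at 2-fold and 4468 without a fold. For Wk4 against E18, 2529 became 3989, 1420, 5771 and 12368 in the same order. For recombined tissue against E13, 1098 became 1733, 495, 2839 and 7015, and against E18, 995 became 1594, 418, 2551 and 6372. With 4 times the pseudocount, at 2-fold and without a fold, Wk4 against E13 went from 4035 to 2300, 7865 and 13706, recombined tissue against Wk4 from 3434 to 1875, 6883 and 11974, and the difference of steps from 2380 to 1252, 4844 and 6910. Most members were dim at E13 and in recombined tissue, which limits what their differences can show there.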
